A study of Arabidopsis thaliana with 24 samples.

Results

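The rows described here are the transcripts of the mitochondrial genome of Arabidopsis thaliana, taken as every row of the deposited expression table whose locus code begins with ATM. There were 77 such rows among 21440 gene rows, the 64 control entries of the array being left out. Each row holds 1 level per array, on 24 arrays from 8 mutant lines with 3 biological replicates each. The codes could not be matched to gene names, since 0 of the 77 were found in the RefSeq table of the TAIR10.1 assembly used here, which lists the organelle's genes under other tags. The members are therefore called by their locus codes, and genes of respiratory complexes and of the ribosome could not be set apart from unnamed reading frames.

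Plant mitochondria keep a small genome of their own. It encodes some subunits of the respiratory chain complexes and of ATP synthase, proteins for cytochrome c maturation, part of the organelle's ribosome, its ribosomal and transfer RNAs, and many open reading frames with no known product. Nuclear genes supply the remaining respiratory subunits and nearly all of the proteins that replicate the genome and transcribe, edit and splice its RNA. Most plant mitochondrial transcripts carry no stable poly(A) tail, and Arabidopsis chromosome 2 contains a long insertion of mitochondrial DNA whose sequence is nearly the same as that of the organelle.

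The single mutants were wer-1, myb23-1, gl3-1, egl3-1, ttg2-1, cpc-1 and try-82, and the remaining line was the double mutant cpc-1 ttg2-1; each is named below by its gene. The mutated genes encode transcription factors that set hair and non-hair fate in the root epidermis, and no wild type array was analysed here. All 8 lines carried WER::GFP, in which the WEREWOLF promoter drives a fluorescent protein in developing epidermis and lateral root cap. Root ends of seedlings grown for 5 days in continuous light were turned into protoplasts, and fluorescent cells were sorted before RNA was extracted. The labelled cRNA was made from the poly(A) RNA in that extract.

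Defining markers of the labelled cells were read at a median level of 9.83 for 5 epidermal and 9.53 for 4 lateral root cap genes (log2, means of 24 arrays). Markers of other tissues had medians of 5.51 for 3 ground tissue genes and 4.84 for 4 stele genes, of which WOL reached 10.02. These marker genes are read by different probes, so their levels are not on a common scale and do not measure the purity of the sort. TTG2 read 4.35 ± 0.44 (SD, n = 3) in ttg2 but 8.25 ± 0.54 in cpc ttg2, where the label gives it the same mutant allele, and 5.65 to 7.26 in the other 6 lines. TRY read 10.71 ± 0.55 in try and 7.09 to 9.57 elsewhere. GL3 was not among the measured genes, and the mutated gene read inside the range of the other lines in cpc, egl3, myb23 and wer. Where the probes lie relative to the mutations is not given in the sources used here, so these levels cannot settle the genotypes. The groups are accordingly called the arrays labelled cpc ttg2 and the arrays labelled try.

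The values do not always separate the organelle from the nucleus. For 49 of the 77 members, which hold 46 distinct profiles, a nuclear row had exactly the same value on all 24 arrays. All 46 of these nuclear rows lie on chromosome 2, between the codes AT2G07664 and AT2G07826, and RefSeq annotates 30 as protein coding and 16 as pseudogenes or transcribed pseudogenes. In these 49 rows, signal from the mitochondrial gene and from the chromosome 2 locus cannot be told apart. The other 28 members had no such nuclear row, which does not show that they lack a nuclear copy. Some members also shared all values with each other, namely ATMG00040 with ATMG01080, ATMG00080 with ATMG00090, ATMG00170 with ATMG00620 and ATMG00490 with ATMG00500, and with these 4 pairs the 77 rows hold 73 distinct profiles. Among the 21363 rows that are not members, 0.786% shared all values with another row.

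The deposited levels are log2 values from robust multi-array averaging (RMA), and a difference of 1 is a 2-fold difference. The members spanned nearly the whole range of the array. Mean levels over 24 arrays ran from 2.84 for ATMG00600 to 11.86 for ATMG00580, with a median of 5.74 against 6.71 for all genes. The highest were ATMG00580, ATMG01190 (11.85), ATMG00980 (10.13) and the shared row ATMG00080 and ATMG00090 (10.04). The lowest were ATMG00600, ATMG01090 (3.0), ATMG01110 (3.01), ATMG00820 (3.33) and ATMG00470 (3.37). Mean levels lay below 4 for 14 members and above 9 for 10 members, compared with 21.8% and 21.2% of all genes. Members with the values of a chromosome 2 row had a median level of 6.69, and those without one 4.74. Rows that differ in their values are read by different probes, so these levels are not per length and do not rank the genes by abundance.

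The mean of the 77 rows moved by more than 2 log2 units among arrays, and single lines held much of that range. The 3 cpc arrays had means of 4.95, 5.90 and 7.13 (replicates 1, 2 and 3), the lowest of the 24 arrays and the second highest being replicates of the same line. In wer the means were 5.46, 5.80 and 6.86, in egl3 5.52, 6.56 and 6.42, and in gl3 5.48, 6.09 and 6.28. The myb23 arrays were close together at 5.83, 5.89 and 5.93, and so were the try arrays at 6.31, 6.46 and 6.19. The ttg2 arrays read 5.87, 6.66 and 6.18. The arrays labelled cpc ttg2 read 6.55, 6.64 and 7.37, which includes the highest mean of all.

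**Figure D1:**
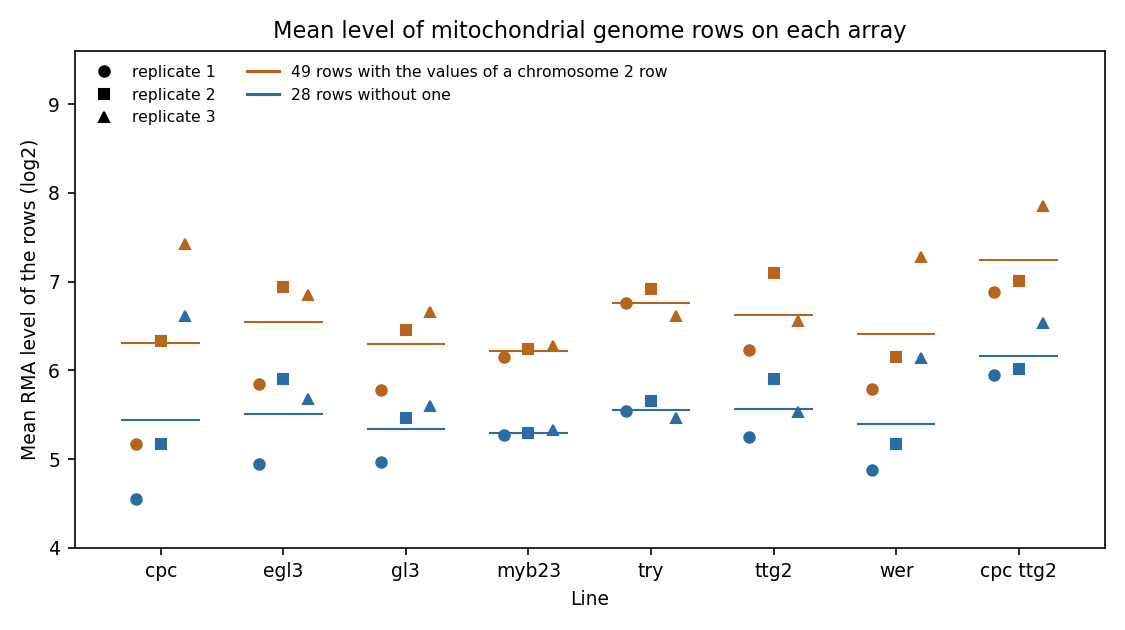
Mean RMA level (log2) of the 49 rows with the values of a chromosome 2 row (orange) and of the 28 rows without one (blue) on each of 24 arrays, by line. Points are arrays, with the replicate given by shape, and bars are line means. Both sets move together from array to array, and the cpc line runs from 4.55 to 6.61 in the 28 rows without such a row.

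Line means of the 77 rows were 5.99 ± 1.09 in cpc, 6.04 ± 0.73 in wer, 5.95 ± 0.42 in gl3, 6.16 ± 0.57 in egl3, 5.88 ± 0.05 in myb23, 6.32 ± 0.13 in try, 6.24 ± 0.40 in ttg2 and 6.85 ± 0.45 in the arrays labelled cpc ttg2 (SD, n = 3). The ranges of cpc and of wer overlapped those of all the other lines. The plot of array means shows the same movement in both sets of rows. The 28 members without a nuclear row of the same values read 4.55, 5.17 and 6.61 on the cpc arrays. The full range was 4.55 to 6.61 in that set and 5.17 to 7.85 in the other.

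Replicates differed more in these rows than in most genes. The within-line SD, pooled over the 8 lines with 16 residual degrees of freedom, had a median of 0.66 over the members against 0.38 over all genes, and 67 of 77 members lay above the genes' median. Only 11.2% of genes had an SD above the members' median. Among genes of like level the members were also high: at levels of 5 to 7 their median SD was 0.85 against 0.48, and at levels of 7 to 9 it was 0.78 against 0.39, with 19 of 20 members above the genes' median in the latter. Rows with and without the values of a chromosome 2 row had like spreads, with medians of 0.67 and 0.64.

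**Figure D2:**
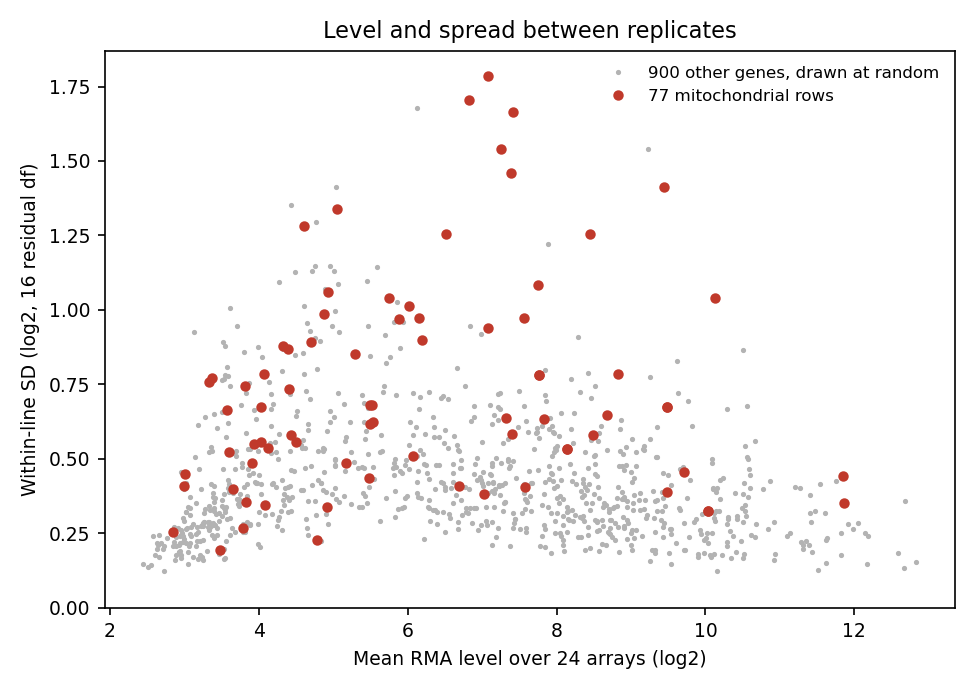
Within-line SD (log2, 16 residual degrees of freedom) against the mean RMA level over 24 arrays (log2), for the 77 mitochondrial rows (red) and for 900 other genes drawn at random (grey). Red points sit above most grey points of the same level, up to an SD of 1.79.

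The 5 members with the largest spread were ATMG00750 (SD 1.79), ATMG01290 (1.70), ATMG01030 (1.66), ATMG01040 (1.54) and ATMG00400 (1.46). ATMG00750 read 3.98, 7.05 and 9.74 on the cpc arrays, 5.08, 6.47 and 9.06 on the gl3 arrays and 4.47, 5.99 and 8.87 on the wer arrays, while the arrays labelled cpc ttg2 read 8.41, 8.05 and 10.13. Every one of these lines thus overlapped the others, and the F test over 8 lines gave an adjusted p of 0.642 for this row. ATMG01290, whose values no nuclear row shared, read 3.47, 7.52 and 8.81 in cpc and 3.93, 6.22 and 8.47 in wer. In myb23 it read 6.15, 6.05 and 5.70.

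At the other end ATMG01060 had an SD of 0.19, ATMG01250 of 0.23, ATMG00600 of 0.25, ATMG00300 of 0.27 and the shared row ATMG00080 and ATMG00090 of 0.33. The smallest spreads were not confined to rows near the floor of the array. ATMG00080 lay between 9.39 and 10.68 on all 24 arrays, and the highest row, ATMG00580, between 11.19 and 12.27 with an SD of 0.35, while ATMG00600 lay between 2.30 and 3.48.

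The replicate differences were largely shared among members. Over the 73 distinct profiles, the deviations from the line mean of 2 members had a median correlation of 0.58 (quartiles 0.32 and 0.76), and 89.3% of member pairs were above 0. These are descriptions over 24 arrays that all members share. The array mean of the members held 49.8% of their within-line sum of squares, and the median SD was 0.51 after each array was centred on it. In cpc the array with the lowest mean held the lowest of 3 values for 59 members, and the array with the highest mean held the highest for 67. In egl3 68 members were lowest on replicate 1, and in wer 69 were highest on replicate 3. In myb23, whose arrays hardly differed, these counts were 33 and 33.

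**Figure D3:**
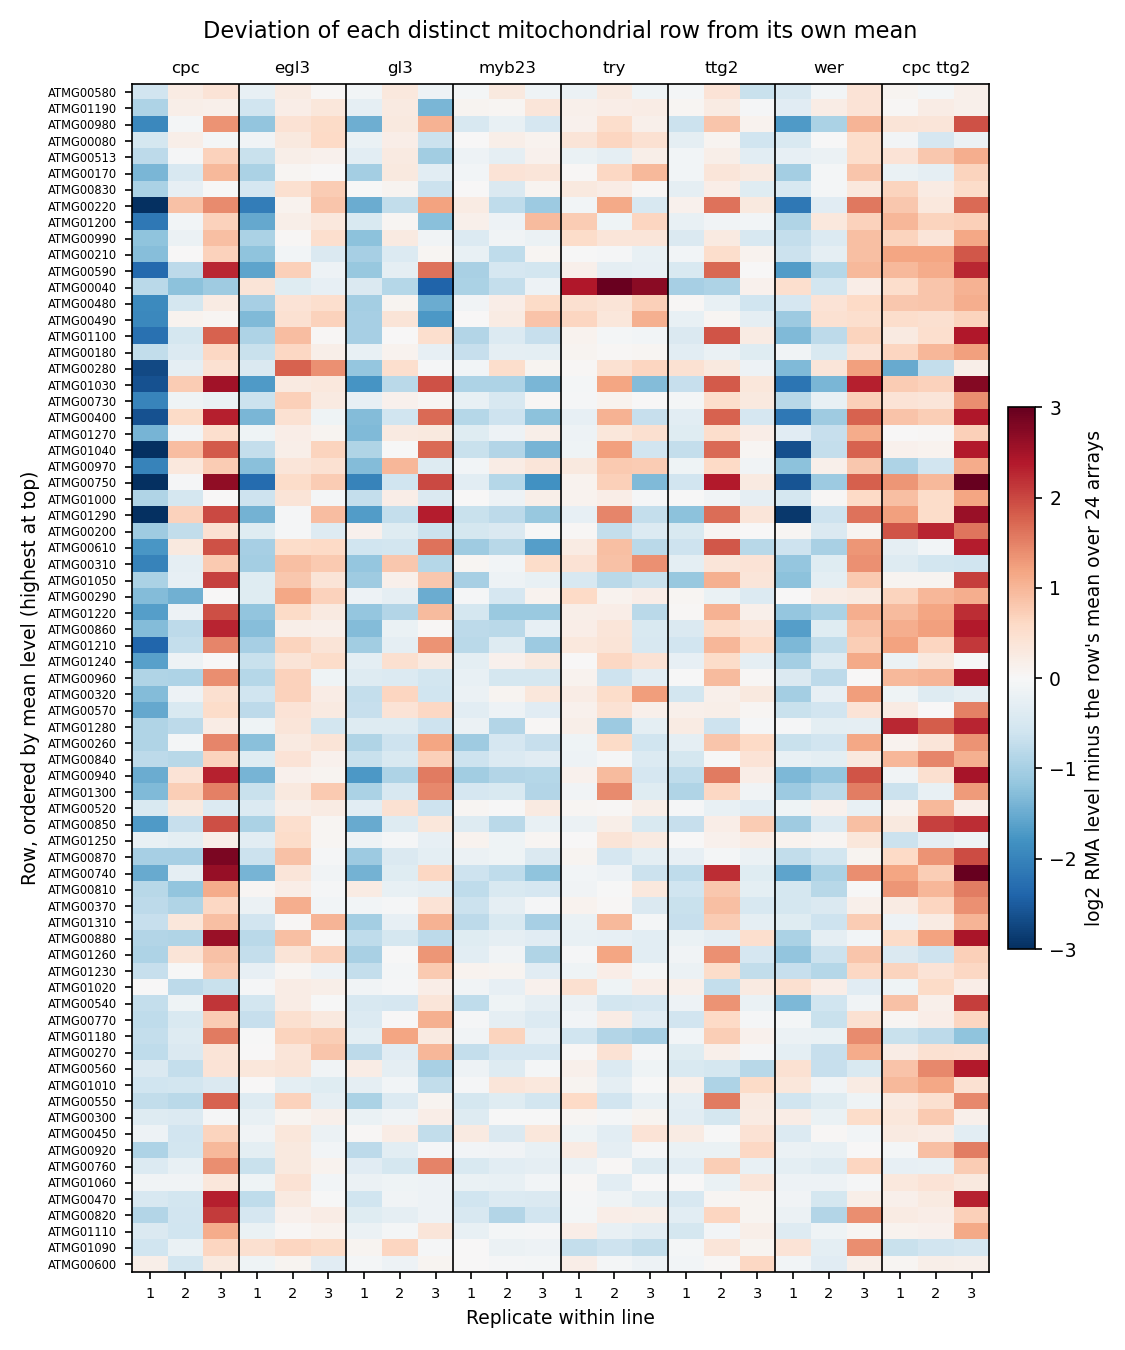
Deviation of each of the 73 distinct mitochondrial rows from its own mean over 24 arrays (log2, colour scale limited to 3 in either direction), with rows ordered by mean level and columns by line and replicate. Whole columns are blue or red within single lines, as in cpc and wer, and ATMG00040 is red on all 3 try arrays.

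Median within-line SDs by line were 1.04 for members against 0.36 for genes in cpc, 0.78 against 0.32 in wer, 0.74 against 0.35 in gl3 and 0.65 against 0.31 in egl3. They were 0.47 against 0.32 in the arrays labelled cpc ttg2, 0.45 against 0.30 in ttg2 and 0.25 against 0.17 in myb23. In try alone the members did not exceed the genes, at 0.28 against 0.29.

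The arrays with low or high means also carried particular numbers at the end of their labels, whose meaning the labels do not give. The 4 arrays numbered below 10, which are replicate 1 of cpc, egl3, gl3 and wer (numbers 3, 5, 8 and 1), had the 4 lowest means of the 24. The 2 arrays whose number follows the letter S, replicate 3 of cpc and of wer, came next below the highest mean of all. Without these 6 arrays, a set put together after the values were seen, the remaining 18 had means between 5.80 and 7.37. The members' median within-line SD was then 0.45 against 0.35 for genes, with 57 of 77 members above the genes' median. The arrays labelled cpc ttg2 bear the highest numbers, 147, 150 and 151, so number and genotype cannot be told apart there.

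Several other readings of the same arrays were set beside the members. The mean of the 3 chloroplast rows (2 distinct profiles) was highest on the same array as the members' mean in 6 of 8 lines and lowest on the same array in 5. The array's 5S ribosomal RNA entry was highest on the same array in 5 lines and lowest in 5, and read 9.46, 11.23 and 12.09 on the cpc arrays. The actin entry's 3' minus 5' difference, which grows as cRNA gets shorter, was highest with the members in 5 lines and lowest in 6, and read 4.80, 4.88 and 5.26 in cpc. The same difference of the glyceraldehyde-3-phosphate dehydrogenase entry was highest with the members in 3 lines and lowest in 3, and read 1.18, 1.24 and 0.85 in cpc. For the 25S ribosomal RNA entry the counts were 4 and 4, and for the median of all genes 0 and 4. The interquartile range of all genes was narrowest on the array with the highest members' mean in every line except egl3 and myb23. It read 4.75, 4.47 and 4.11 on the cpc arrays. The part of each in the members' levels was not tested.

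Across the 8 lines a smaller share of members than of genes differed beyond the replicate spread. The moderated F test of limma, with Benjamini-Hochberg adjustment over all 21440 genes and a threshold of 0.05, called 11 of 77 members (14.3%), in 10 distinct profiles. It called 27% of all genes. At an unadjusted p below 0.05 there were 15 members, against 40.5% of genes. Of the 11 called members, 8 have the values of a chromosome 2 row. In these pooled RNA samples fewer cells of a type and less RNA per cell cannot be told apart.

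One row was particular to the arrays labelled try. ATMG00040, which has the values of ATMG01080 and of AT2G07671, read 10.54, 11.10 and 10.85 there, whereas the other 21 arrays lay between 5.74 and 9.17. The groups did not overlap. Line means elsewhere were 6.90 in gl3, 7.11 in cpc, 7.54 in both myb23 and ttg2, 8.06 in egl3, 8.19 in wer and 8.94 in the arrays labelled cpc ttg2. The F test gave an adjusted p of 3.28e-05, and try was higher in 7 of 7 pairs of lines by 1.89 to 3.92 on the log2 scale, with a largest adjusted p of 0.00213 (limma). The row was called in all 24 fits that left out 1 array, and it was the only profile still called without the arrays labelled cpc ttg2 (2 members, 2.6%). That fit called 4.07% of all genes, against 27% with all arrays, so the calls fell among genes in general as well.

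**Figure D4:**
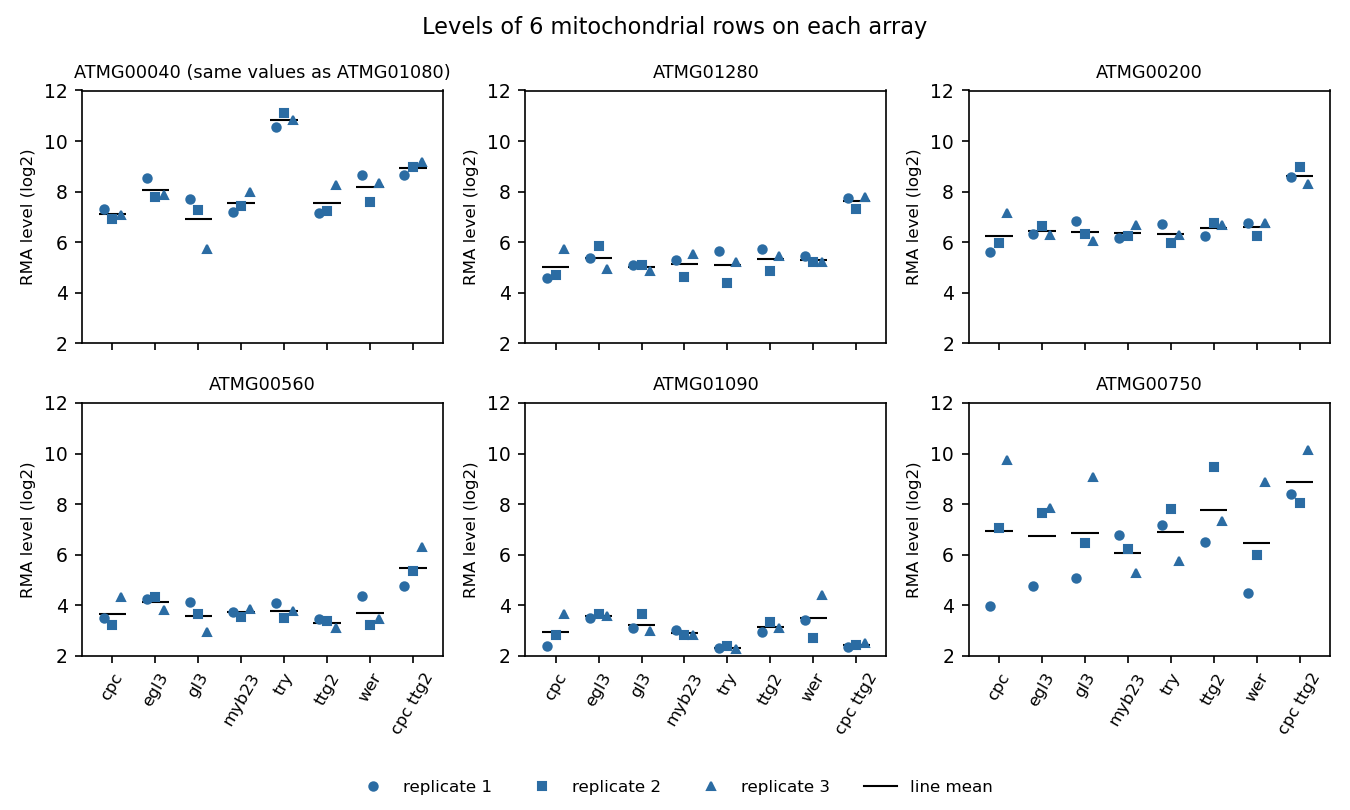
RMA level (log2) of 6 mitochondrial rows on each of 24 arrays, by line, with the replicate given by shape and the line mean by a bar. ATMG00040 stands at 10.54 to 11.10 in try, ATMG01280, ATMG00200 and ATMG00560 are highest in the arrays labelled cpc ttg2, and ATMG00750 differs more between replicates than between lines.

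Most of the other called members were highest in the arrays labelled cpc ttg2. ATMG01280 read 7.76, 7.31 and 7.78 there and 4.40 to 5.84 on the other 21 arrays (adjusted p = 3e-04, limma F test). ATMG00200 read 8.59, 8.98 and 8.30 against 5.63 to 7.15 (adjusted p = 4.66e-04). Both were higher in 7 of 7 pairs, by 2.24 to 2.62 and by 2.03 to 2.37.

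ATMG00560 had a lower level, at 4.76, 5.35 and 6.30 in the arrays labelled cpc ttg2 and 2.95 to 4.37 elsewhere (adjusted p = 0.00672, limma F test). ATMG00840, whose values no nuclear row shared, read 6.17, 6.64 and 6.25 against 4.33 to 5.88 (adjusted p = 0.0473). ATMG00210 read 9.68, 9.68 and 10.35 against 7.23 to 9.40 (adjusted p = 0.035). In each of these 3 rows the groups did not overlap, which restates the values by which the F test picked them. Over all 77 members, 7 had the arrays labelled cpc ttg2 all above the other 21. The share of all genes without overlap was not counted. ATMG00290 (adjusted p = 0.021), ATMG01010 (0.024) and ATMG00810 (0.0459) were also highest in the arrays labelled cpc ttg2, but their values there overlapped those of another line. Of the 24 fits that left out 1 array, ATMG00810 was called in 7, ATMG00840 in 9, ATMG00210 in 20 and both ATMG00290 and ATMG01010 in 22. With the array mean of the 77 rows as a covariate ATMG00810 and ATMG00840 had adjusted p-values of 0.175 and 0.125, and ATMG01010 had 0.0743 after quantile normalisation (limma F test).

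ATMG01090 went the other way. It read 2.34, 2.43 and 2.50 in the arrays labelled cpc ttg2 and 2.30, 2.38 and 2.25 in those labelled try, while line means elsewhere were 2.89 to 3.57 (adjusted p = 0.0319, limma F test). All of its line means lay below 4. It was called in 16 of the 24 fits without 1 array, and its adjusted p was 0.0613 with arrays centred on their median.

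Leaving out single arrays changed these calls. Only ATMG00040, ATMG01080, ATMG00200 and ATMG01280 were called in all 24 such fits. The number of members called was 5 without replicate 2 or without replicate 3 of the arrays labelled cpc ttg2, 6 without their replicate 1, 7 without try replicate 3 and 19 without cpc replicate 3. Genes called in these fits were 18.1%, 16.7%, 21.7%, 21% and 27.7% in that order, against 27% with all arrays. ATMG00560 missed the threshold in 1 fit, without cpc ttg2 replicate 3 (adjusted p = 0.0578). Without all 3 arrays labelled cpc ttg2, ATMG01280, ATMG00200 and ATMG00560 had adjusted p-values of 0.927, 0.966 and 0.646. Without the 6 arrays whose label number was below 10 or followed an S, cpc and wer kept only replicate 2. No count of calls is given for that fit.

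Over all 77 rows, the highest line mean was in the arrays labelled cpc ttg2 for 54 members, compared with 30.3% of genes, and in try for 16 members, compared with 12.4% of genes. The lowest line mean was in myb23 for 28 members, in gl3 for 17 and in cpc for 16, compared with 10%, 9.34% and 9.96% of genes. As members move together between arrays, these counts are not independent of each other and are given as a description.

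The pair of the arrays labelled cpc ttg2 and cpc, which by their labels differ by the ttg2 allele, called 14 members higher (13 distinct profiles) and 0 lower. Over all genes 3.79% were called higher and 5.3% lower. The median difference of the 77 members was 0.89 on the log2 scale against 0.03 for all genes, and 68 members were above 0. ATMG01280 was higher by 2.62 ± 0.34 (SE, 6.13-fold, adjusted p = 0.00018), ATMG00200 by 2.37 ± 0.32 (5.18-fold, adjusted p = 0.000248) and ATMG00040, like ATMG01080, by 1.84 ± 0.41 (3.57-fold, adjusted p = 0.0108), all by limma. The groups of ATMG00810 overlapped, and the share of all genes without overlap in this pair was not counted. The count moved most with the cpc arrays: 7 members were called without cpc replicate 1, 8 without replicate 2 and 33 without replicate 3, and 8 without replicate 2 or replicate 3 of the arrays labelled cpc ttg2. Genes called in either direction moved the same way, at 3.39%, 3%, 13.9%, 3.61% and 4.58% in that order, against 9.1% with all arrays. The median difference was 0.25 without cpc replicate 1 and 1.45 without cpc replicate 3. Of the 14 calls, 6 were made in all 6 of these fits.

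Against ttg2, from which by their labels they differ in the cpc allele, the arrays labelled cpc ttg2 had 9 members higher (8 distinct profiles) and 0 lower. The background was 4.03% of genes higher and 6.16% lower. The median member difference was 0.64 against 0.01 for all genes, with 65 members above 0. The largest differences were those of ATMG01280 (2.27 ± 0.34, 4.81-fold, adjusted p = 0.00077), ATMG00560 (2.16 ± 0.38, 4.47-fold, adjusted p = 0.00244) and ATMG00200 (2.06 ± 0.32, 4.17-fold, adjusted p = 0.00105, limma). These 3 were called in all 6 fits that left out an array of the pair. Counts were 3 without cpc ttg2 replicate 2 or without ttg2 replicate 1, 4 without cpc ttg2 replicate 3 and 5 without ttg2 replicate 2. Genes called in either direction also fell, to 4.44%, 5.74%, 5.71% and 6.77% in that order, from 10.2% with all arrays. Both comparisons use the arrays labelled cpc ttg2, so they are not separate evidence.

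**Figure D5:**
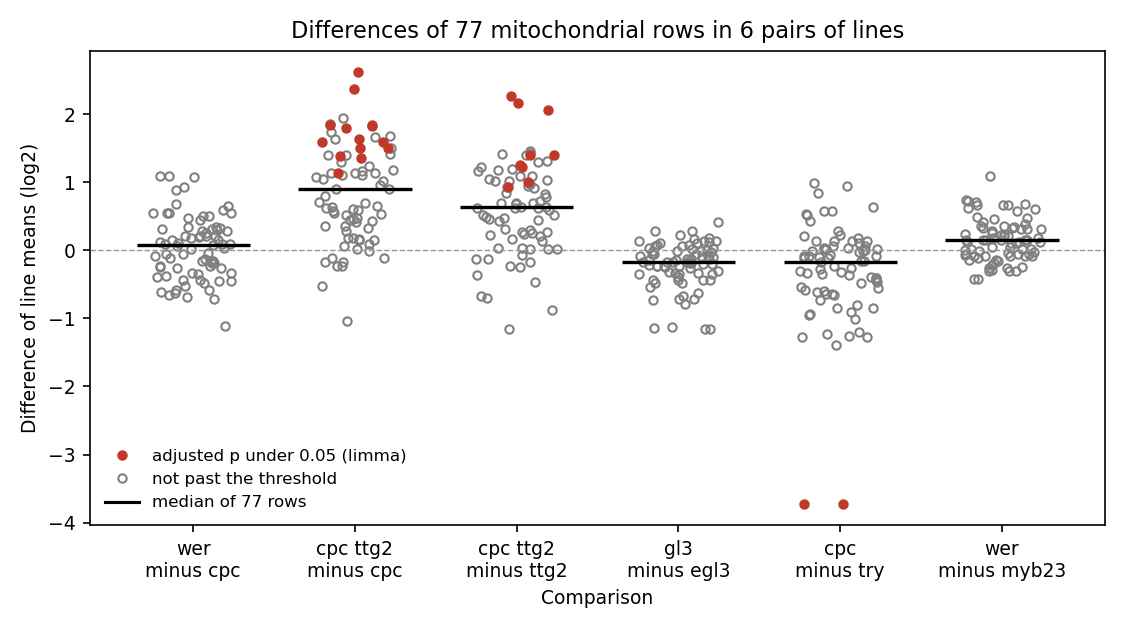
Differences of line means (log2) for the 77 mitochondrial rows in 6 pairs of lines; filled points passed an adjusted p of 0.05 (limma, adjusted over 21440 genes) and bars are medians over the 77 rows. The arrays labelled cpc ttg2 have 14 and 9 filled points above 0 against cpc and ttg2, and the only other filled points are the shared row ATMG00040 and ATMG01080 at a difference of -3.72 for cpc minus try.

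The other 4 pairs gave few or no calls, as the plot of pair differences shows. For cpc minus try 0 members were higher and 2 lower, which are ATMG00040 and ATMG01080 with 1 shared set of values, at -3.72 ± 0.41 (13.2-fold lower in cpc, adjusted p = 1.36e-05, limma). The background there was 1.5% of genes higher and 0.849% lower, and the members' median difference was -0.17. For wer minus cpc limma called 0 members in either direction, against 1.6% of genes higher and 1.46% lower. The median difference of that pair was 0.07, and it lay between -0.33 without cpc replicate 1 and 0.61 without cpc replicate 3.

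The paralogous bHLH genes GL3 and EGL3 act together in the epidermis, and gl3 minus egl3 again gave 0 called members, with a median difference of -0.17. Over all genes 0.485% were higher and 0.173% lower. For wer minus myb23, which are both R2R3 MYB mutants, limma called 0 members, with a median difference of 0.15. That pair called 0.00466% of genes higher and 0.014% lower.

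Of the 28 pairs of lines, the 7 with the arrays labelled cpc ttg2 called 9 to 20 of the 77 members. Between 9.1% and 34.9% of genes were called in them. Relative to cpc and ttg2, 18.2% and 11.7% of members were called, against 9.1% and 10.2% of genes. Relative to egl3, try, myb23 and wer, the share of members was below that of genes. There 11, 9, 13 and 11 members were higher and 2, 5, 0 and 1 lower, against 34.9%, 30.8%, 26.7% and 26% of genes called. The count of 20 (19 distinct profiles) was reached against gl3, all of them higher, where 10.1% of genes were called higher. The 6 remaining pairs with try called 2 or 3 members, against 0.816% to 5.1% of genes, and the 15 pairs without either line called 0 members, against at most 3.05% of genes.

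Nuclear genes for the same organelle were set beside the members from lists drawn up with earlier results of these data known. The shares of all genes given above, 3.79% higher and 5.3% lower relative to cpc and 4.03% and 6.16% relative to ttg2, are the background for each list. Of 22 nuclear genes used for the respiratory chain and its assembly, the arrays labelled cpc ttg2 had 0 higher and 3 lower than cpc, with a median difference of 0.01, and 0 higher and 3 lower than ttg2, with a median of 0.13. The 3 were the same genes in both comparisons. COX15, named for the yeast enzyme that makes haem a, fell by 1.82 ± 0.29 (SE) relative to cpc (adjusted p = 0.00119) and by 1.58 ± 0.29 relative to ttg2 (adjusted p = 0.00307). HCC1, a copper chaperone of the SCO family, fell by 1.13 ± 0.27 (adjusted p = 0.0145) and by 1.10 ± 0.27 (adjusted p = 0.0143). COX17, also a copper chaperone, fell by 0.78 ± 0.21 (adjusted p = 0.0291) and by 0.76 ± 0.21 (adjusted p = 0.0298). By limma COX15 was called in 6 of 6 fits leaving out an array in both comparisons, while COX17 was called in 2 of 6 and HCC1 in 4 and 3.

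The replicate spread of those nuclear genes was small, with a median SD of 0.20, and their mean was 10.42, 10.48 and 10.37 on the cpc arrays, where the mean of the mitochondrial rows ran from 4.95 to 7.13. COX10, another assembly gene of the list, was not called, at -0.52 (adjusted p = 0.17) and -0.18 (adjusted p = 0.69, limma). Of 13 genes of alternative respiration, 1 rose relative to cpc and 0 relative to ttg2, a count near the background. It was NDB2, an external NADH dehydrogenase, at 0.90 ± 0.26 (adjusted p = 0.0332, limma), and it missed the threshold in 5 of the 6 fits that left out an array, with adjusted p up to 0.149 without cpc replicate 1.

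Of 11 genes used for mitochondrial RNA processing, 0 rose and 1 fell in both comparisons, which is near the background share of genes. It was MEF1, an editing factor, which fell by 1.68 ± 0.40 relative to cpc (adjusted p = 0.0159) and by 1.68 ± 0.40 relative to ttg2 (adjusted p = 0.0137, limma). Of 4 genes that maintain mitochondrial DNA, 1 fell relative to cpc and 2 relative to ttg2. OSB1, which limits recombination of the mitochondrial genome, fell by 1.68 ± 0.41 (adjusted p = 0.0175) and by 1.73 ± 0.41 (adjusted p = 0.0126), and POLIA, an organellar DNA polymerase, fell by 1.50 ± 0.40 relative to ttg2 (adjusted p = 0.0242). MEF1 was called in 3 and 5 of 6 fits without an array, OSB1 in 2 and 4, and POLIA in 4. Of 7 genes of the mitochondrial stress response, only the chaperonin HSP60 was called, which fell by 1.35 ± 0.40 relative to ttg2 (adjusted p = 0.0381, called in 1 of 6 fits). In the other 4 pairs 0 genes of these 5 nuclear lists were called by limma.

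Markers of other root tissues were read on the same arrays. The mean level of 3 ground tissue markers reached 5.36 to 6.42 on the arrays labelled cpc ttg2, 4.50 to 5.91 in cpc and 3.99 to 4.81 in ttg2, and that of 4 stele markers was 6.15 to 6.49, 5.69 to 5.93 and 5.58 to 6.01. Relative to cpc 0 of 3 ground tissue and 1 of 4 stele markers were called higher, and relative to ttg2 2 of 3 and 1 of 4. Of these calls APL, a phloem regulator, held in 6 of 6 fits without an array in both comparisons, while relative to ttg2 the endodermal genes MYB36 and CASP1 held in 5 and in 1. Markers of the sorted tissues did not all move in the same direction. Relative to cpc 1 of 5 epidermal markers, WER, fell by 0.83 ± 0.24 (SE, adjusted p = 0.0395) and 1 of 4 lateral root cap markers, FEZ, fell by 1.99 ± 0.53 (adjusted p = 0.0259, limma), each called in 2 of 6 fits without an array. GL2, COBL9 and RHD6 were higher by 0.55, 0.82 and 0.80 and EXPA7 lower by 0.96, all without a call. The epidermal mean read 9.05, 10.23 and 9.64 on the arrays labelled cpc ttg2 and 10.06, 9.81 and 8.82 on the cpc arrays. The mean of the lateral root cap markers was at most 8.78 on the arrays labelled cpc ttg2, 9.30 to 9.71 in cpc and 9.31 to 9.44 in ttg2. Means as low were also read elsewhere, at 8.44 on egl3 replicate 2, 8.34 on gl3 replicate 3, 8.32 on myb23 replicate 3 and 8.40 on wer replicate 2. Relative to ttg2 0 markers of these 2 lists were called. The array's 25S ribosomal RNA entry read 11.24, 11.12 and 10.86 on the arrays labelled cpc ttg2. It read 8.04, 9.72 and 8.75 on the cpc arrays and 10.25, 11.01 and 10.22 on the ttg2 arrays. The actin entry's 3' minus 5' difference was 5.88, 5.35 and 6.14 on the arrays labelled cpc ttg2. It was at most 5.26 in cpc and 4.99 in ttg2, but 6.09 on gl3 replicate 3. The glyceraldehyde-3-phosphate dehydrogenase difference was 1.53 to 1.78 on the arrays labelled cpc ttg2, and at most 1.24 in cpc and 1.42 in ttg2. The median of all genes was 6.49 ± 0.03 on the arrays labelled cpc ttg2 and 6.68 ± 0.10 on the cpc arrays. The part of these differences in the members' levels was not tested.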

How the data were processed

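RNA from sorted root epidermal cells was measured on 24 Affymetrix arrays, 3 biological replicates of each of 8 lines. What the authors deposited is a single table in log2 units; the submitters' processing notes name RMA as the method. For array type, probe set definition, software version and genome build nothing is given in the sources used here. RMA as usually run sets all arrays to a common distribution of probe signals, and levels of different rows are not comparable. No control sample or common reference was used, and 0 columns were left out.

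The 64 control entries were removed and the other 21440 rows fitted with limma 3.58.1 in R 4.3.3, with 1 mean per line over all 24 arrays, since the lines share 1 estimate of spread. Differences among lines were tested with the moderated F test, and pairs of lines with contrasts of the same fit. P-values were adjusted by Benjamini-Hochberg over all 21440 rows for each comparison, with a threshold of 0.05. No filter on low values was applied, so all 77 members were tested. The fit was tested on simulated data with known differences. The number of arrays limits the precision.

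The members and gene lists were chosen with earlier results of these data known. Members named are the 5 highest and lowest levels, the 10 smallest F test p-values, the 3 largest called differences per pair and direction without overlap, and the 5 largest and smallest within-line SDs. Listed nuclear genes were used where the RefSeq table gives the listed symbol for the locus. Called nuclear genes were named up to 2 per list, direction and pair. COX17 exceeds that limit and was named after its values were seen, as were the numbers in the labels.

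Same-numbered replicates were checked for shared deviations from the line means over all genes. By the rule that every pair correlates above 0.1, the numbers paired 4 of the 28 pairs of lines, and among the 6 comparisons only wer and cpc (0.22 to 0.44). The others were egl3 with wer, and try with myb23 and with ttg2. The replicate block left the members called at 0, 0, 2 and 2 in these 4 pairs. With it 3.55% of genes were called for wer minus cpc, and the share was not counted for the others. Alternatives were other scalings, a level filter, array weights, the replicate block, fits of single pairs and leaving out each array.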

Additional observations from a re-analysis of the deposited data

How the results depend on the processing

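The counts of called members depended on single arrays. Leaving out each array in turn gave 5 to 19 members called among 8 lines (11 with all arrays), against 16.7% to 30.5% of genes. For cpc ttg2 minus cpc it gave 7 to 33 (14), against 3% to 13.9% of genes. The counts were 3 to 6 for cpc ttg2 minus ttg2 (9) and 2 to 3 for cpc minus try (2). Genes called there were 3.83% to 8.88% and 1.07% to 3.15%. The other 3 pairs gave 0 members, against at most 3.72% of genes. Median member differences then ranged from -0.33 to 0.61 for wer minus cpc, 0.25 to 1.45 for cpc ttg2 minus cpc, 0.32 to 0.84 for cpc ttg2 minus ttg2, -0.48 to 0.04 for gl3 minus egl3, -0.74 to 0.21 for cpc minus try and -0.27 to 0.32 for wer minus myb23, and the median within-line SD from 0.55 to 0.68.

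With array weights 26 members were called among 8 lines, 2 for wer minus cpc, 27 for cpc ttg2 minus cpc and 21 for cpc minus try (1 higher, 20 lower), but the weights also raised the genes called, to 56.1%, 9.26%, 25.2% and 39.2% in that order. Testing only genes above the median level, which leaves 31 members, gave 6 among 8 lines, 7 for cpc ttg2 minus cpc and 4 for cpc ttg2 minus ttg2. These are 19.4%, 22.6% and 12.9% of the members left, against 43.4%, 16.6% and 19.3% of the genes tested. Centring arrays on their median gave 14 for cpc ttg2 minus ttg2, against 13.5% of genes. A fit of the 6 arrays of the pair alone gave 2 for cpc ttg2 minus cpc, against 0.285% of genes, with fewer arrays behind the spread.

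The replicate block gave 14 members among 8 lines, 11 of them called without it, and 16, 9 and 2 for cpc ttg2 minus cpc, cpc ttg2 minus ttg2 and cpc minus try. Genes called with it were 28.1%, 9.45%, 11% and 2.78% in that order. The other 3 pairs stayed at 0 under the block, against at most 3.55% of genes. The block changed no count by more than 1.5 times. Among the 6 comparisons the replicate numbers paired only wer with cpc, and correlations of same-numbered arrays went down to -0.45 for cpc ttg2 and ttg2.

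Alternatives chosen after seeing the data also moved counts. Without the arrays labelled cpc ttg2 the F test called 2 members (2.6%), against 4.07% of genes. With the array mean of the 77 rows as a covariate, the F test called 15 members, 9 of them among the 11 called without it, and 29.4% of genes. In that fit wer minus cpc had 1 call, against 5.24% of genes. The pair cpc ttg2 minus cpc had 14 (11 higher, 3 lower), against 11.7% of genes, and cpc ttg2 minus ttg2 14 (9 higher, 5 lower), against 13.7%. For cpc minus try there were 7 (5 higher, 2 lower), which is 9.09% of members against 6.91% of genes. Counting distinct rows once gave 1 for cpc minus try, against 2.35% of genes. Without the 6 arrays with a label number under 10 or after an S there were 21 among 8 lines, 18 for cpc ttg2 minus ttg2 (16 higher, 2 lower) and 1 for gl3 minus egl3. The causes of these changes were not tested.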

Other observations

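A few values lie outside the comparisons above and were picked out after they were seen. On gl3 replicate 3 the members split, with ATMG00750 (9.06), ATMG01030 (9.33) and ATMG01290 (9.18) at the highest of the 3 gl3 arrays and ATMG00040 (5.74) and ATMG01190 (10.48) at the lowest values of all 24 arrays. That array's 3' minus 5' difference of the glyceraldehyde-3-phosphate dehydrogenase entry, 2.78, was the largest of the 24, the others lying between 0.61 and 1.78. Its part in the split was not tested.

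ATMG01180, whose values no nuclear row shared, read 3.35, 3.23 and 2.82 in the arrays labelled cpc ttg2, although the members' mean was high there. In the arrays labelled try it read 3.42, 3.14 and 3.02. It read 3.32, 3.63 and 5.58 in cpc and 3.72 to 5.45 in the other 5 lines, and it was not called among 8 lines (adjusted p = 0.161, limma F test).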
